A study of Mus musculus with 10 samples.

Results

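In 10 mouse expression arrays, 77 of 18193 measured genes stood at a moderate or high level in neural stem cells (NSC) taken from the adult brain and were lower in both groups of cells derived from them. The groups were labelled as induced pluripotent stem (iPS) cells and as NSC made again from such iPS cells. A gene was taken when its mean over the 4 brain NSC arrays was at least 7 on the log2 scale and the means of the 3 arrays labelled iPS and of the 3 labelled iPS-derived NSC were each at least 1 log2 unit lower, which is 2-fold. Each gene was read on 1 probe set, the brightest of those that name that gene alone. Since these values chose the genes, their differences from brain NSC are given here as a description with no test.

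All cells came from OG2/Rosa26 mice, which carry Oct4-eGFP, a fluorescent reporter of the pluripotency gene Oct4, and a neo/lacZ marker in the Rosa26 locus. For both derived groups the labels add a cross with ICR females. As labelled, strain background thus cannot be told apart from derivation in any difference from brain NSC, and its part was not tested. Brain NSC were grown from adult brain. The cells labelled iPS had received a pMX retroviral vector with mouse Oct4 cDNA as the only factor, were grown with LIF on irradiated mouse embryonic fibroblasts (MEF), and came from colonies picked by hand for green fluorescence. NSC labelled as iPS-derived were differentiated from them. The sources used here do not give how many clones or animals stand behind the arrays, so the p values measure the spread between these samples, which may be technical.

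The arrays did not follow 2 of the 3 labels. Pou5f1, the gene of Oct4, averaged 4.55 in brain NSC, 4.66 on the arrays labelled iPS and 13.29 on those labelled iPS-derived NSC. Fabp7, a fatty acid binding protein of neural stem cells, averaged 14.45, 14.17 and 4.43 in the same order. The group names are kept below as labels, and every direction that involves them rests on names that these markers contradict. Brain NSC replicate 4 also stood apart: over all genes its Pearson correlation was 0.9918 to 0.992 with the arrays labelled iPS and 0.9898 to 0.9925 with the other brain NSC arrays. Without it the same rule took 100 genes, of which 73 were among the 77, and Atp1b2, Dusp10, Fam171a1 and Rab5c were no longer taken. Arrays of RNA from many cells cannot tell fewer cells of a type from less RNA per cell.

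Adult neural stem cells divide in culture and can form neurons, astrocytes and oligodendrocytes. Notch signalling keeps them undifferentiated: a ligand on one cell activates a Notch receptor on its neighbour, and the cleaved receptor joins the DNA-binding protein RBPJ to switch on Hes genes, whose products repress neuronal genes. Their surface also carries cadherins, protocadherins and integrins, which hold neighbouring cells and matrix. Reprogramming with Oct4 is meant to replace this state with a pluripotent one, and differentiation to bring it back.

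Across the 77 genes the median level on the brain NSC arrays was 8.88, 8.91, 8.71 and 8.63 for replicates 1 to 4. On the arrays labelled iPS it was 7.27, 7.30 and 7.36, and on those labelled iPS-derived NSC 5.51, 5.45 and 5.57. Every gene had all 4 brain NSC arrays above all 6 others, a pattern that 6.99% of all genes showed and that the rule favours. Against brain NSC, the median difference on the labelled iPS arrays was -1.32, with a range of -4.51 to -1.0, while over all genes the median was 0.01. For the arrays labelled iPS-derived NSC the median was -2.96, with a range of -8.33 to -1.17, against 0.13 over all genes. The labelled iPS arrays set the limit for most genes: in 70 of the 77 their difference was the smaller one.

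**Figure D1:**
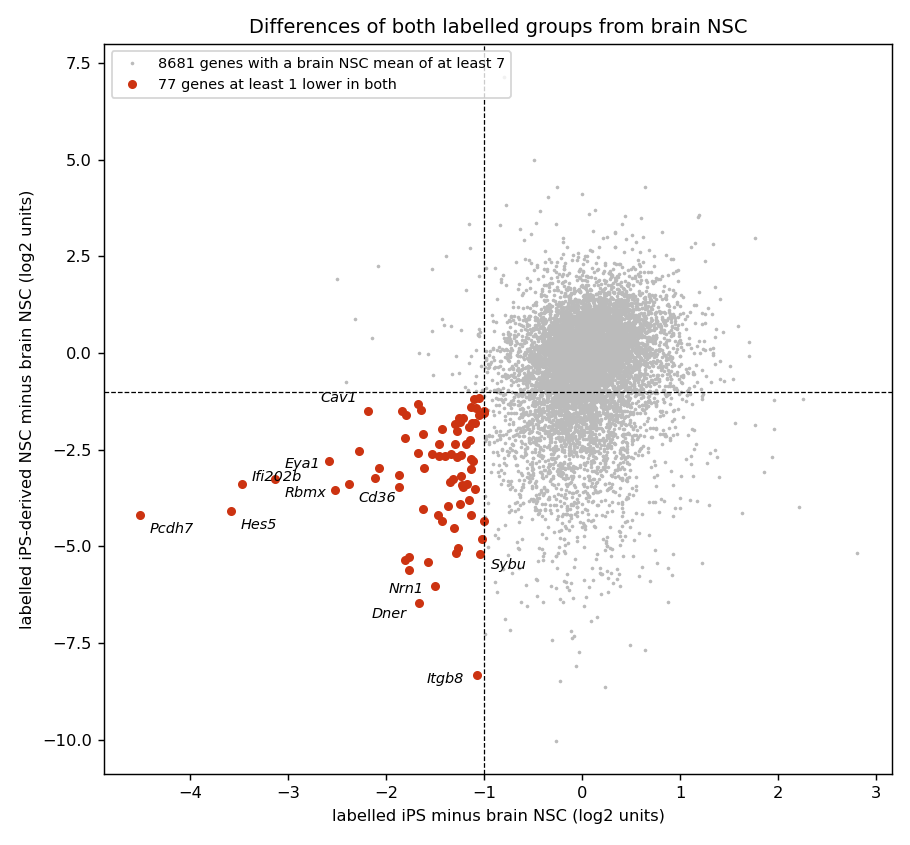
Each point is 1 gene with a brain NSC mean of at least 7 (8681 genes). The horizontal axis is labelled iPS minus brain NSC and the vertical axis labelled iPS-derived NSC minus brain NSC, both in log2 units. The 77 red points lie at or below -1 on both axes. Most crowd near -1 on the horizontal axis and reach down to -8.33 on the vertical axis (Itgb8), while Pcdh7 lies farthest left at -4.51.

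The rule acted mostly through the first group. Of the 8681 genes with a brain NSC mean of at least 7, 114 were at least 1 lower on the arrays labelled iPS and 2277 on those labelled iPS-derived NSC. The 77 genes are 67.5% of the former and 3.38% of the latter. Among all 18193 genes, with no level limit and so not counted like the 77, 32 were at least 1 higher than brain NSC in both groups. By limma, 0.89% of all genes were called lower and 0.951% higher in the first comparison, and 14.0% and 11.3% in the second. A call needs an adjusted p under 0.05 and at least 2-fold. The rule used both comparisons, so no count of calls among the 77 is given for them. Where lists are counted below, their members in the set were chosen by these same values. Both comparisons use the same brain NSC arrays.

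**Figure D2:**
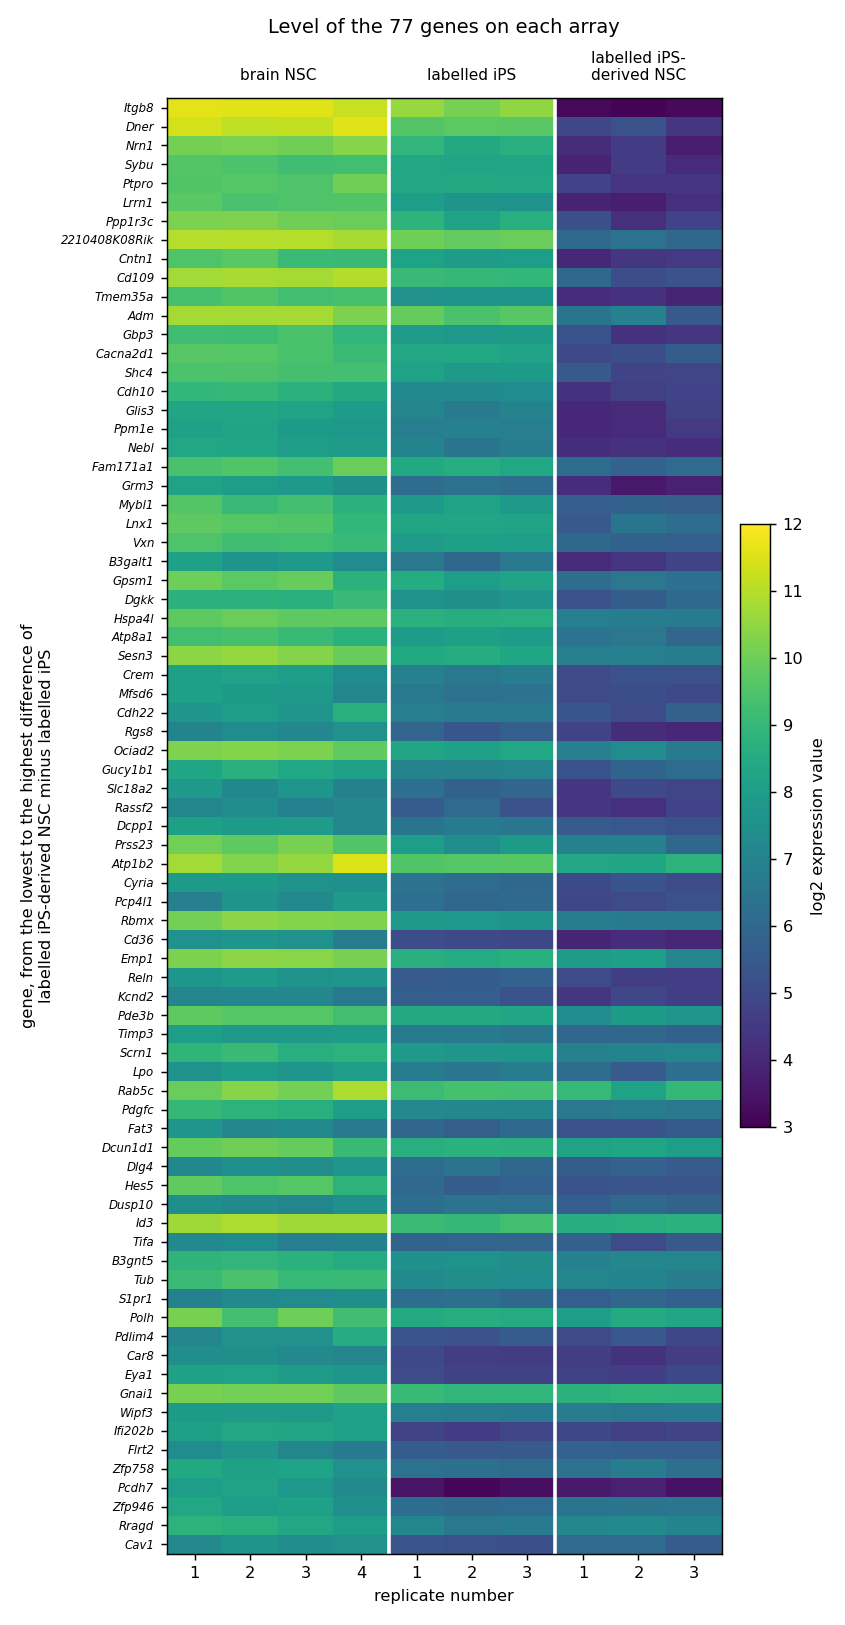
Every row is 1 of the 77 genes and every column 1 array, with the log2 expression value as colour from 3 (dark) to 12 (bright). Rows are ordered by the difference between the labelled iPS-derived NSC and labelled iPS arrays. In the upper rows the labelled iPS arrays keep an intermediate colour and the labelled iPS-derived NSC arrays are dark. In the lower rows both groups share 1 colour.

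Hes5, the Notch target that holds neural stem cells undifferentiated, came second when the set was ranked by the smaller of each gene's 2 differences from brain NSC. Hes5 read 9.82, 9.53, 9.61 and 8.81 on the brain NSC arrays, 6.08, 5.67 and 5.83 on the arrays labelled iPS and 5.30, 5.38 and 5.37 on those labelled iPS-derived NSC. Values are given in the order of the replicate numbers. Here and below, runs of values go from brain NSC to labelled iPS to labelled iPS-derived NSC, and of a pair of differences from brain NSC the first is that of labelled iPS. Both derived groups sat far below brain NSC, whose replicate 4 was the lowest of its 4. The labelled iPS mean was 12-fold and the labelled iPS-derived NSC mean 17.1-fold below brain NSC. A second probe set of Hes5, with a brain NSC mean of 7.73, showed smaller differences of -1.67 and -1.83. The chosen probe set is of a kind that can also read related transcripts.

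The promoter of Hes5 is shown because RBPJ, the factor that carries the Notch signal to DNA, is known to act through it. The sequence is RefSeq's for GRCm38.p6, plus strand, chr4:154960673-154960972, from 250 bases before to 50 after the transcript start, and capitals mark the RBPJ core GTGGGAA on either strand.
Hes5: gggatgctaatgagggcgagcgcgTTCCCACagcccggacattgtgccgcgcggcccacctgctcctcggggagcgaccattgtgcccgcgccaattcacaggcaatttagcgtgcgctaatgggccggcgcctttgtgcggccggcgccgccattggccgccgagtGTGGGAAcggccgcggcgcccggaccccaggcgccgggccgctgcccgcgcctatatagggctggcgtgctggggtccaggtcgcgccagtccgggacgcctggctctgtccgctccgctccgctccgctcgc
The letters began at positions -226 and -83 from the start, the first as the reverse complement. Of the 65 genes of the set with a RefSeq promoter, 3 held GTGGGAA on either strand, Dlg4, Grm3 and Hes5, which is 4.62%, against 7.25% of all 27025 genes with a promoter there. The genes compared were not limited by level as the set was, and a match of letters is not evidence of binding.

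Dner, a transmembrane protein related to Notch ligands, was the other member of the Notch list. In brain NSC Dner stood at 11.43, 11.15, 11.17 and 11.60, on the arrays labelled iPS at 9.60, 9.72 and 9.68, and on those labelled iPS-derived NSC at 4.93, 5.24 and 4.42. It was far lower on the arrays labelled iPS-derived NSC, with no overlap among the 3 groups. From the labelled iPS to the labelled iPS-derived NSC arrays Dner fell by 4.80 ± 0.18 (SE, 3 against 3 arrays; limma adjusted p = 2.62e-11), and a second probe set gave differences from brain NSC of -2.16 and -7.40. Hes5 missed the 2-fold limit in that comparison, at -0.51 ± 0.20 (adjusted p = 0.0409).

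Of the 28 measured Notch pathway genes, 0 were called higher and 2 lower on the arrays labelled iPS against brain NSC, and the 2 were these. Over all genes 0.951% were called higher and 0.89% lower in that comparison. The list's median was -0.02, against 0.01 over all genes. The ligand Jag1 stood at -0.78, the receptor Notch2 at -0.79, the targets Hes1 and Hey1 at -0.69 and -0.61, the receptor Notch1 at 0.46, and Rfng, a glycosyltransferase that modifies Notch receptors, at 0.84, none of them past 2-fold. The rest of the list lay between the values of Hey1 and Notch1. On the arrays labelled iPS-derived NSC 11 of the 28 were called lower and 1 higher than in brain NSC, where 14.0% of all genes were called lower and 11.3% higher.

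Pcdh7, a protocadherin that joins cells by contacts between like molecules, came first by the smaller of its 2 differences from brain NSC. Pcdh7 read 8.04, 8.19, 7.79 and 7.30 on the brain NSC arrays, 3.46, 3.15 and 3.36 on the arrays labelled iPS and 3.64, 3.82 and 3.45 on those labelled iPS-derived NSC. The levels of both derived groups lie under the array's lower quartile (4.22 to 4.41 over the 10 arrays), and no detection calls were at hand. Their folds against brain NSC, 22.7 and 18.3, are therefore not exact. In 7 genes, Pcdh7, Cd36, Lrrn1, Tmem35a, Grm3, Nebl and Itgb8, all 3 labelled iPS-derived NSC arrays lay under it, so the sizes of their differences that involve this group, and any rank by them, are not exact either. At least 1 of these arrays lay under it in 20 genes, and 2 of the 3 in Nrn1, Sybu, Glis3, Ppm1e, B3galt1 and Rgs8, whose sizes share this limit. Of 2 other probe sets of Pcdh7, the one with a brain NSC mean of 6.52 gave -3.03 and -2.90, and the dimmer one, at 5.10, gave -0.31 and -0.51.

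**Figure D3:**
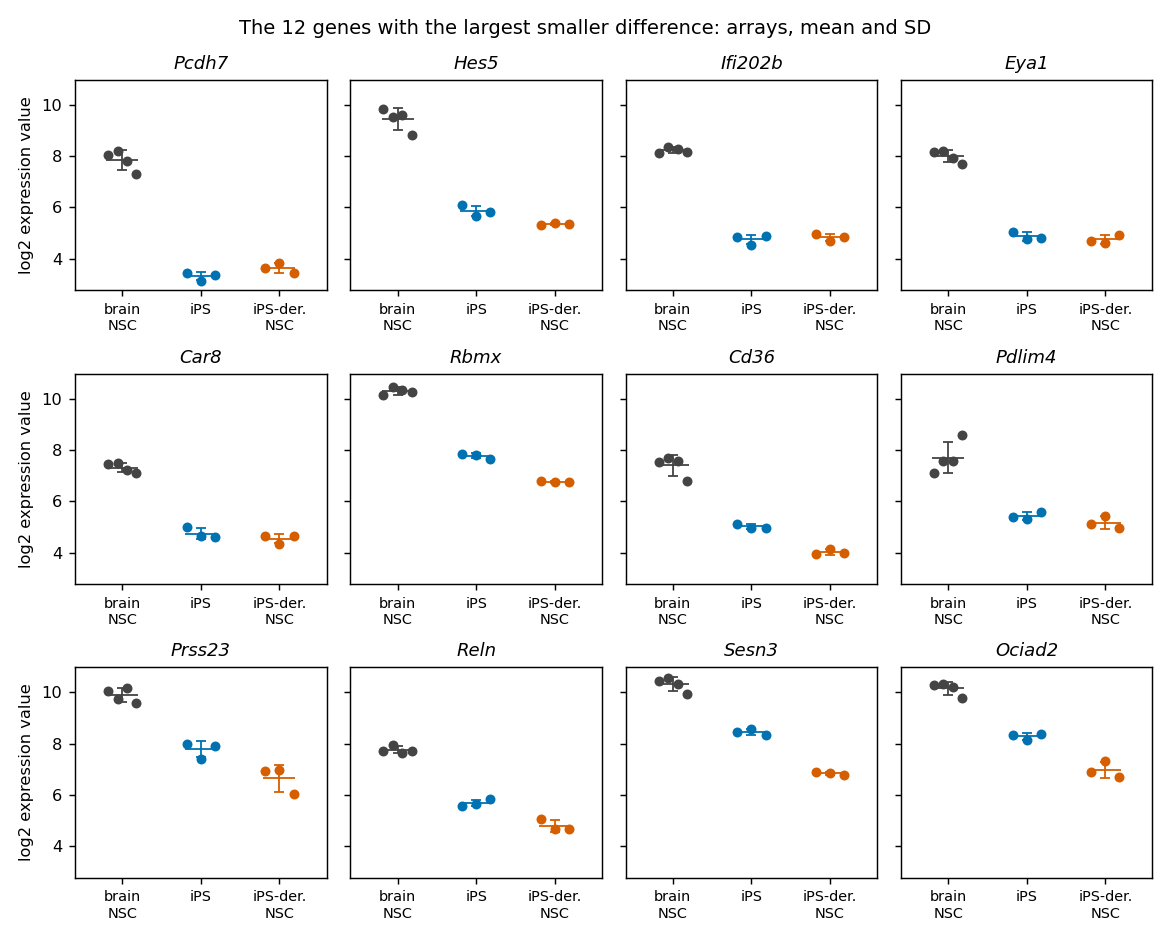
Panels show the 12 genes whose smaller difference from brain NSC was largest, with the log2 expression value of each array as a point and the mean with SD as bars, for 4 brain NSC, 3 labelled iPS and 3 labelled iPS-derived NSC arrays. In Pcdh7, Hes5, Ifi202b, Eya1 and Car8 both derived groups lie together near the bottom. In Rbmx, Cd36, Prss23, Reln, Sesn3 and Ociad2 the labelled iPS arrays lie between the other groups.

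The cadherin family gave 3 further members. Cdh10, a classical type II cadherin of the nervous system, read 8.95, 9.0, 8.78 and 8.45 on the brain NSC arrays, 7.32, 7.30 and 7.36 on those labelled iPS and 4.31, 4.70 and 4.80 on those labelled iPS-derived NSC. The groups were well apart, and the step from the labelled iPS to the labelled iPS-derived NSC arrays was a fall of 2.72 ± 0.15 (adjusted p = 1.92e-09). Its 3 other probe sets were dim, with brain NSC means of 3.75 to 4.78, and with all averaged the step was -0.67 and not called. Cdh22, another cadherin of brain tissue, read 7.74, 8.05, 7.71 and 8.63, then 6.86, 6.76 and 6.76, then 5.41, 5.04 and 5.75, with differences from brain NSC of -1.24 and -2.63. Fat3, a giant atypical cadherin that shapes neurons, read 7.69, 7.15, 7.28 and 6.74, then 5.97, 5.72 and 6.06, then 5.30, 5.31 and 5.55, with differences of -1.3 and -1.83. In both genes the 3 groups did not overlap, and brain NSC replicate 4 was the highest of its group for Cdh22 and the lowest for Fat3. Of the 28 measured cadherins and protocadherins, 5 were called lower and 1 higher on the arrays labelled iPS against brain NSC: the members of the set, Pcdh10 (-1.08), whose brain NSC mean of 6.36 was below the level limit, and Cdh4, which was higher by 1.01. Of all genes 0.89% were called lower and 0.951% higher in this comparison. The median of the 28 was -0.01.

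Itgb8, the integrin subunit with which neural and glial cells activate TGF-beta, showed the widest measured gap between the derived groups. Its values were 11.62, 11.57, 11.57 and 11.25 in brain NSC, 10.62, 10.15 and 10.51 on the arrays labelled iPS and 3.18, 3.09 and 3.24 on those labelled iPS-derived NSC. The labelled iPS arrays lay just below brain NSC, with a difference of -1.07, and the labelled iPS-derived NSC arrays were all under the lower quartile. The measured fall between them was 7.26 ± 0.13 (adjusted p = 3.1e-14), a size that is not exact for that reason.

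Other surface proteins repeated that order. Nrn1, neuritin, a lipid-anchored protein that promotes neurite growth, read 10.12, 10.18, 10.04 and 10.35 in brain NSC, 8.91, 8.47 and 8.64 on the arrays labelled iPS and 4.19, 4.58 and 3.73 on those labelled iPS-derived NSC. Its groups did not overlap, and the last step was a fall of 4.51 ± 0.18 (adjusted p = 6.35e-11). Lrrn1, a leucine-rich repeat membrane protein of neural tissue, read 9.69, 9.41, 9.51 and 9.57, then 8.06, 7.66 and 7.61, then 3.88, 3.74 and 4.21, and fell by 3.83 ± 0.14 (adjusted p = 3.53e-11). Its last 3 values are all under the lower quartile, so the size is not exact, and with all its probe sets averaged the step was -1.26. The receptor tyrosine phosphatase Ptpro read 9.56, 9.64, 9.52 and 10.05, then 8.39, 8.43 and 8.37, then 4.81, 4.37 and 4.43, with a fall of 3.86 ± 0.15 (adjusted p = 3.46e-11). In both genes the labelled iPS arrays lay between the others and nearer to brain NSC. The contactin Cntn1, an adhesion molecule of axons, read 9.53, 9.68, 9.13 and 9.06, then 8.21, 7.99 and 8.02, then 4.03, 4.42 and 4.49. Its groups were separate, with a fall of 3.76 ± 0.17, or 2.20 with all its probe sets averaged. Cd109, a lipid-anchored protein that binds TGF-beta, fell by 3.53 ± 0.18.

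The remaining surface genes differed by about 2-fold or less between the derived groups. Flrt2, a membrane protein that guides migrating neurons, averaged 7.22 in brain NSC, 5.57 and 5.76, and its second probe set 7.07, 4.58 and 4.33. Cav1, caveolin, the coat protein of caveolae, read 7.23, 7.67, 7.41 and 7.55 in brain NSC, 5.38, 5.24 and 5.18 on the arrays labelled iPS and 6.16, 6.14 and 5.57 on those labelled iPS-derived NSC. It was the member with the largest positive step between the derived groups, 0.69 ± 0.16 (adjusted p = 0.00174, under 2-fold), and their arrays did not overlap. Cd36, a scavenger receptor for fatty acids, read 7.54, 7.68, 7.57 and 6.80, then 5.12, 4.97 and 4.96, then 3.93, 4.15 and 3.98; brain NSC replicate 4 was the lowest of its group by a wide margin. Its fall of 1.0 ± 0.18 between the derived groups sat at the 2-fold limit and was not called without labelled iPS replicate 1 or labelled iPS-derived NSC replicate 1 or 3. It depended more on the probe set: the step was -0.44 with all probe sets averaged and -0.26 without the probe sets that can read related transcripts, not called in either, and Cd36 was then not in the set. Its 2 other probe sets had brain NSC means of 6.01 and 4.43. Emp1, an epithelial membrane protein, differed from brain NSC by -1.68 and -2.59.

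Over the 14 adhesion and surface genes, a grouping by role made after their values were seen, the labelled iPS arrays minus brain NSC ran from -4.51 to -1.07. Between the derived groups 9 of the 14 were called lower, beside 45 of all 77, while 14.4% of all genes and 27.0% of genes with a brain NSC mean of at least 7 were.

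Reelin (Reln), the secreted guide of migrating neurons, led the secreted proteins together with the serine protease Prss23. In brain NSC Reln stood at 7.72, 7.96, 7.63 and 7.71, on the arrays labelled iPS at 5.59, 5.64 and 5.83, and on those labelled iPS-derived NSC at 5.06, 4.66 and 4.67. All 3 groups were separate, and the step between the derived groups, -0.89 ± 0.13 (adjusted p = 3.8e-05), stayed under 2-fold; without labelled iPS-derived NSC replicate 1 it was called, at -1.02, as under quantile normalization, at -1.01. Prss23 differed from brain NSC by -2.11 and -3.24, and its call between the derived groups, a fall of 1.13 ± 0.24 (adjusted p = 0.00104), was lost without labelled iPS-derived NSC replicate 3, at -0.82. The call was also lost with averaged probe sets (-0.92), under quantile normalization (-0.93) and without the probe sets that can read related transcripts (-0.25), where Prss23 was not in the set. Prss23 read 10.07, 9.75, 10.17 and 9.57, then 8.0, 7.42 and 7.91, then 6.95, 6.97 and 6.04, with brain NSC well above both derived groups. Adrenomedullin (Adm), a vasodilator peptide, read 10.80, 10.78, 10.79 and 10.22, then 9.88, 9.40 and 9.66, then 6.51, 6.93 and 5.50, and brain NSC replicate 4 was again below the others. Pdgfc, a platelet-derived growth factor, read 9.01, 8.81, 8.64 and 8.03, then 7.23, 7.19 and 7.16, then 6.57, 6.81 and 6.61, with differences of -1.43 and -1.96. On another bright probe set of Pdgfc, with a brain NSC mean of 7.42, the first difference was only -0.46. Timp3, an inhibitor of matrix proteases, read 8.03, 7.83, 7.87 and 7.98, then 6.74, 6.69 and 6.52, then 5.98, 6.01 and 5.78, with differences of -1.28 and -2.01. The groups of both were separate, and their steps between the derived groups, -0.53 and -0.73, stayed under 2-fold. Dcpp1, a secreted protein of salivary glands, differed by -1.19 and -2.34 and the peroxidase Lpo by -1.12 and -1.80.

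Among factors of transcription, Eya1 came first. It is a co-activator and phosphatase that works with homeobox partners in organ formation. Its values were 8.16, 8.20, 7.94 and 7.69 in brain NSC, 5.06, 4.76 and 4.79 on the arrays labelled iPS and 4.69, 4.62 and 4.94 on those labelled iPS-derived NSC. The derived groups overlapped each other and were well below brain NSC. The difference between them, -0.12 with a 95% interval of -0.43 to 0.19, was not called (adjusted p = 0.486). Its other probe sets were dim, with brain NSC means of 5.84 and 3.88 and differences of -0.54 and -0.72 on the brighter one, so the size rests on 1 probe set. Of the 16 measured genes of the Eya, Dach and Pax families and their sine oculis homeobox partners, Eya1 alone was called lower on the arrays labelled iPS against brain NSC, and 0 were called higher. In that comparison 0.89% of all genes were called lower and 0.951% higher.

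Id3, an inhibitor of basic helix-loop-helix factors that BMP signals induce, read 10.71, 10.88, 10.72 and 10.73 in brain NSC, 9.15, 9.0 and 9.28 on the arrays labelled iPS and 8.60, 8.69 and 8.76 on those labelled iPS-derived NSC. The groups were tight and separate. Its relative Id2 went the other way on the arrays labelled iPS, at 1.93, and stood at -2.69 on those labelled iPS-derived NSC. Between the derived groups the Myb factor Mybl1 was lower at -2.23 ± 0.17, the zinc finger factor Glis3 at -2.65 ± 0.18, Crem, which answers cyclic AMP, at -1.59 ± 0.17, and vexin (Vxn), a protein of neurogenesis, at -2.19 ± 0.12. All 4 were called, with adjusted p values of 2.23e-06 or less.

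Rbmx, an X-linked RNA-binding protein of splicing, read 10.13, 10.45, 10.33 and 10.26 in brain NSC, 7.85, 7.79 and 7.66 on the arrays labelled iPS and 6.78, 6.73 and 6.73 on those labelled iPS-derived NSC. All 3 groups were separate on this probe set, with the labelled iPS arrays in between. On another bright probe set, with a brain NSC mean of 8.26, the labelled iPS arrays differed from brain NSC by only -0.22 and the labelled iPS-derived NSC arrays by -2.78. The difference of Rbmx between the arrays labelled iPS and brain NSC therefore depended on the probe set. Polh, a polymerase that copies past damaged DNA, differed by -1.13 and -1.40.

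Zfp758 and Zfp946 encode zinc finger proteins of the large family of KRAB-type repressors, and lie 30.3 kb apart on chromosome 17 with no measured gene between. Zfp758 read 8.45, 8.16, 8.21 and 7.55 on the brain NSC arrays, 6.38, 6.31 and 6.19 on the arrays labelled iPS and 6.4, 6.80 and 6.28 on those labelled iPS-derived NSC. In brain NSC Zfp946 stood at 8.37, 8.0, 8.14 and 7.50, on the arrays labelled iPS at 6.25, 6.11 and 6.13, and on those labelled iPS-derived NSC at 6.49, 6.48 and 6.53. In both genes brain NSC replicate 4 was the lowest brain array, and the derived groups lay close together. Between the derived groups Zfp758 differed by 0.20 and Zfp946 by 0.33 (adjusted p = 0.391 and 0.0977). Of 7 other measured genes within 500 kb, the zinc finger genes Zfp943, Zfp994, Zfp945, Zfp942, Zfp944 and Zfp995 differed on the arrays labelled iPS by -0.95, -0.86, -0.68, -0.53, -0.39 and -0.39, and Gm16386 by 0.21.

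Their promoters are shown because both genes were lower in both derived groups and both promoters hold the E-box CACGTG, in capitals, near the start. Both are on the plus strand of GRCm38.p6, at chr17:22361213-22361512 and chr17:22423952-22424251, from RefSeq.
Zfp758: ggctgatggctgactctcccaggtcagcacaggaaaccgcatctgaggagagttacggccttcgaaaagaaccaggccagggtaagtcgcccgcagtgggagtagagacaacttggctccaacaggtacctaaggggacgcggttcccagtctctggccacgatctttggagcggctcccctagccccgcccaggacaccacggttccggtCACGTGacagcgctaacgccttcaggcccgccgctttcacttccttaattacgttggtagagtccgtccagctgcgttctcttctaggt
Zfp946: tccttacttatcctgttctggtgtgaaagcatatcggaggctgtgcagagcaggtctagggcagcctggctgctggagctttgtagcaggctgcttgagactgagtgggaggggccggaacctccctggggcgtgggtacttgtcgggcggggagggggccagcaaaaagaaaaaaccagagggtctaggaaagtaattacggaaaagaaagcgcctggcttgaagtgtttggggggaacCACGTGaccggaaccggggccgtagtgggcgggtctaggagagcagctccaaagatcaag
The E-box began at positions -39 and -10 from the start. Among the 65 genes of the set with a promoter 8 held CACGTG, which is 12.3%, against 8.09% of all genes with a promoter; besides this pair they were Flrt2, Gnai1, Lnx1, Nebl, Ppp1r3c and Reln. The sequence TATAAA on either strand was in 13.8% of the set and 15.7% of all genes. All genes with a promoter were not limited by level as the set was. Their first listed promoters had a median of 7 CG pairs, against 13 in the set, so these shares do not compare like with like.

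The interferon-inducible Ifi202b, a DNA-binding protein of the p200 family, was the third by the smaller of the 2 differences. Its values were 8.12, 8.37, 8.28 and 8.14 in brain NSC, 4.83, 4.55 and 4.87 on the arrays labelled iPS and 4.96, 4.69 and 4.86 on those labelled iPS-derived NSC. The derived groups overlapped and differed by 0.09, with a 95% interval of -0.17 to 0.34. Its probe set is of a kind that can read related p200 transcripts. Gbp3, a guanylate-binding GTPase induced by interferon, read 9.23, 9.22, 9.41 and 8.92, then 7.95, 7.80 and 7.92, then 5.27, 4.32 and 4.41. Between the derived groups Gbp3 fell by 3.23 ± 0.20 (adjusted p = 7.94e-09). Its neighbour in the family Gbp2 was too dim for the set, with a brain NSC mean of 5.56 and differences of -1.73 and -1.82. Of the 33 measured genes of the interferon response and the p200 family, 3 were called lower (these) and 2 higher on the arrays labelled iPS against brain NSC: Ifitm2 at 1.76 and Ifi35 at 1.01. The shares over all genes in this comparison were 0.89% lower and 0.951% higher. Tifa, an adaptor of innate signalling, differed by -1.22 and -1.67.

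Channel and synapse genes were led by the metabotropic glutamate receptor Grm3. It read 8.20, 8.03, 7.85 and 7.49 in brain NSC, 6.20, 6.39 and 6.22 on the arrays labelled iPS and 4.18, 3.62 and 3.81 on those labelled iPS-derived NSC, and fell by 2.40 ± 0.17 in the last step (adjusted p = 3.24e-08), a size that is not exact since its last 3 values are under the lower quartile. It was the only 1 of 33 measured neurotransmitter receptors called lower on the arrays labelled iPS against brain NSC, with 0 higher. Over all genes 0.89% were called lower and 0.951% higher there. Syntabulin (Sybu), which links vesicles to the axonal motor kinesin, read 9.59, 9.45, 9.25 and 9.26, then 8.41, 8.32 and 8.33, then 3.86, 4.61 and 4.10. Its labelled iPS arrays lay close below brain NSC, and it fell by 4.16 ± 0.16 between the derived groups (adjusted p = 4.52e-11). The vesicular monoamine transporter Slc18a2 was also called lower there, at -1.25 ± 0.23.

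Cacna2d1, a calcium channel subunit, read 9.67, 9.62, 9.41 and 9.12, then 8.39, 8.41 and 8.17, then 5.00, 5.15 and 5.67. Its step between the derived groups, -3.05 ± 0.17, was called, and was -1.3 with all probe sets averaged. On 2 other bright probe sets of Cacna2d1 the labelled iPS arrays differed from brain NSC by only -0.6 and -0.13. The potassium channel Kcnd2 read 7.09, 7.16, 7.17 and 6.63, then 5.71, 5.70 and 5.26, then 4.41, 4.90 and 4.68, with differences of -1.46 and -2.35. Its step of -0.89 missed the 2-fold limit, but was called under quantile normalization (-1.01), without labelled iPS replicate 3 (-1.04) and without labelled iPS-derived NSC replicate 2 (-1.01). Dlg4, the postsynaptic scaffold PSD-95, read 7.2, 7.52, 7.44 and 7.69, then 6.17, 6.44 and 6.05, then 5.67, 5.82 and 5.60, with differences of -1.25 and -1.77. In all of these channel and scaffold genes brain NSC lay above both derived groups with no overlap. Every gene of the set showed this pattern, which the rule favours, so it does not set these genes apart. Of all genes 6.99% showed it.

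Atp1b2, the beta subunit of the sodium pump in astrocytes, read 10.75, 10.28, 10.57 and 11.49, then 9.57, 9.64 and 9.67, then 8.40, 8.32 and 8.82. Brain NSC replicate 4 was the highest here, and without it Atp1b2 no longer met the limit. S1pr1, a sphingolipid receptor, read 6.94, 7.27, 7.34 and 7.45, then 6.21, 6.27 and 6.04, then 5.72, 5.99 and 5.76, with differences of -1.08 and -1.43 and no overlap of the groups. With Id3 these were 3 members among 22 measured astrocyte markers. Of the 22, 4 were called lower and 1 higher on the arrays labelled iPS against brain NSC, beside 0.89% and 0.951% of all genes. The others called were Apoe at -1.14 and Sparcl1 at 1.2. Astrocyte markers summed on the linear scale to 28833 to 29575 for the labelled iPS arrays, 11009 to 11808 for the labelled iPS-derived NSC arrays and 30530 to 33863 for brain NSC, with Gjb6 below the lower quartile on every array. What part this marker level has in the differences was not tested.

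The set held 1 of 30 measured neural stem cell markers, Hes5, and 2 of 30 neuron markers, Reln and Dlg4. It held 0 members of the lists for pluripotency, feeder fibroblasts, microglia, endothelium, ependyma and the oligodendrocyte lineage. These lists have 12 to 25 measured genes, and the set is only 77 of all 18193. For lists dim in brain NSC the rule's level limit largely fixed this in advance. Pluripotency markers summed to 894 to 987 in brain NSC and endothelium markers to 523 to 587, against 25050 to 32868 for the oligodendrocyte lineage. Feeder fibroblast markers (19 measured) summed to 1597 to 1746 for the labelled iPS arrays, 5609 to 7589 for the labelled iPS-derived NSC arrays and 1812 to 2310 for brain NSC, with Lum below the lower quartile throughout. Microglia markers (16 measured) summed to 500 to 526, 674 to 717 and 488 to 510, with Aif1, Itgam, Ptprc, C1qb and P2ry12 below it on every array. The 3-prime minus 5-prime difference of the Actb control, a measure of RNA integrity, was 0.497 to 0.667 for the labelled iPS arrays, 0.422 to 0.568 for the labelled iPS-derived NSC arrays and 0.155 to 0.431 for brain NSC. That of Gapdh was -0.105 to -0.01, -0.123 to 0.006 and -0.252 to -0.117 in the same order. The bioC hybridisation control stood at 9.92 to 10.215, 8.5 to 9.106 and 8.026 to 8.998, highest on the arrays labelled iPS. The part of these in the 77 differences was not tested.

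Genes of intracellular signalling were the largest of the 10 role groups, with 17. The groups were made after the values were seen, and the share of such genes among all genes was not counted. Their difference on the arrays labelled iPS ran from -1.87 to -1.0, with a median of -1.24, close to the -1.32 of all 77. Sesn3, a stress-induced regulator of the growth kinase mTORC1, led them: it read 10.45, 10.56, 10.34 and 9.92, then 8.46, 8.56 and 8.32, then 6.90, 6.87 and 6.79. All 3 groups were separate, with a fall of 1.60 ± 0.14 in the last step (adjusted p = 3e-07). Rragd, a GTPase that recruits mTORC1 to lysosomes, differed from brain NSC by -1.68 and -1.31.

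G-protein signalling had Gnai1, an inhibitory alpha subunit, at -1.05 and -1.17. Gpsm1, which binds such subunits in spindle orientation, stood at -1.32 and -3.26, and Rgs8, which speeds up their inactivation, at -1.61 and -2.96. For Gpsm1 other probe sets with brain NSC means of 7.80 and 7.81 did not show the first difference, at 0.10 and 0.26. Between the derived groups the adaptor Shc4 was called lower at -2.91 ± 0.16, the phosphatase Ppm1e at -2.65 ± 0.15, the ubiquitin ligase Lnx1, which binds Numb, at -2.21 ± 0.23 and the diacylglycerol kinase Dgkk at -1.93 ± 0.18. Smaller calls were those of the guanylate cyclase subunit Gucy1b1 at -1.26 ± 0.19, the Ras-association protein Rassf2 at -1.19 ± 0.20 and Cyria, which binds the GTPase Rac, at -1.08 ± 0.14. Others were under 2-fold in that step: the phosphodiesterase Pde3b at -0.75, the endosomal GTPase Rab5c at -0.55, the cullin neddylation factor Dcun1d1 at -0.53 and the MAP kinase phosphatase Dusp10 at -0.49. In brain NSC Dcun1d1 stood at 9.86, 10.06, 9.86 and 9.06, on the arrays labelled iPS at 8.63, 8.75 and 8.73, and on those labelled iPS-derived NSC at 8.17, 8.30 and 8.04. Dusp10 read 7.49, 7.31, 7.13 and 7.51 on the brain NSC arrays, 6.24, 6.42 and 6.41 on the arrays labelled iPS and 5.68, 6.06 and 5.87 on those labelled iPS-derived NSC. Both sat at the limit of the rule, with separate groups.

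Car8, a carbonic anhydrase relative without the enzyme activity, was the fifth by the smaller of the 2 differences. Car8 read 7.45, 7.49, 7.22 and 7.09 on the brain NSC arrays, 4.98, 4.64 and 4.59 on the arrays labelled iPS and 4.63, 4.32 and 4.65 on those labelled iPS-derived NSC. The derived groups overlapped. Its 2 other probe sets were dim, with brain NSC means of 4.25 and 4.20. Ppp1r3c, which targets a phosphatase to glycogen, was called lower between the derived groups at -3.83 ± 0.21, the glycan enzyme B3galt1 at -1.98 ± 0.22, the chaperone Hspa4l at -1.86 ± 0.09 and the lipid flippase Atp8a1 at -1.68 ± 0.17. For Atp8a1 another probe set stood 0.89 higher on the arrays labelled iPS than in brain NSC, so its membership depends on the probe set. The transporter-like membrane protein Mfsd6 fell by 1.40 ± 0.19 between the derived groups. The glycan enzyme B3gnt5 differed by -1.26 and -1.69 from brain NSC.

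Pdlim4, an actin-binding LIM protein, read 7.11, 7.55, 7.55 and 8.56 in brain NSC, 5.37, 5.29 and 5.58 on the arrays labelled iPS and 5.10, 5.44 and 4.94 on those labelled iPS-derived NSC. Its brain NSC arrays spread widely, with replicate 4 the highest. The actin-associated protein Nebl differed from brain NSC by -1.37 and -3.95. Wipf3, of the family that binds the actin regulator WASP, and the secernin Scrn1 overlap on chromosome 6 and differed by -1.1 and -1.2, and by -1.09 and -1.81. Another adjacent pair, Vxn and Mybl1, lies 40.3 kb apart on chromosome 1 and differed on the arrays labelled iPS by -1.23 and -1.22.

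The remaining genes have less settled roles. Ociad2, a mitochondrial membrane protein, read 10.27, 10.32, 10.21 and 9.79, then 8.33, 8.14 and 8.38, then 6.91, 7.33 and 6.72. Its second probe set gave larger differences of -2.53 and -3.55. Tub, tubby, a protein of ciliary transport, differed by -1.81 and -2.19, and Tmem35a, a chaperone of acetylcholine receptors, by -1.77 and -5.28. Pcp4l1, related to a calmodulin-binding protein of Purkinje cells, differed by -1.3 and -2.35, the membrane protein Fam171a1 by -1.09 and -3.52 and the RIKEN transcript 2210408K08Rik by -1.02 and -4.80.

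The difference between the derived groups was the only comparison the rule did not use directly, and it is bounded by the rule. By limma 45 of the 77 genes were called lower and 0 higher on the arrays labelled iPS-derived NSC than on those labelled iPS, where 14.4% of all genes and 27.0% of genes with a brain NSC mean of at least 7 were called lower and 10.8% and 9.16% higher. Only 11 of the 77 lay at least 2 below brain NSC on the arrays labelled iPS and could have been called higher and still stay at least 1 below. Among all 114 genes with the low labelled iPS level, 45 were called lower and 26 higher, and those 26 were all among the 37 genes outside the set. So the direction among the 77 is largely set by the choice. Leaving out single arrays gave 41 to 47 calls, and without labelled iPS replicate 1 those of Cd36, Cyria, Pcp4l1 and Rbmx were lost. With averaged probe sets 36 calls were left, and those of Atp1b2, Cd36, Cdh10, Crem, Cyria, Mfsd6, Nebl, Prss23 and Rassf2 were lost. Without the probe sets that can read related transcripts 39 were left.

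**Figure D4:**
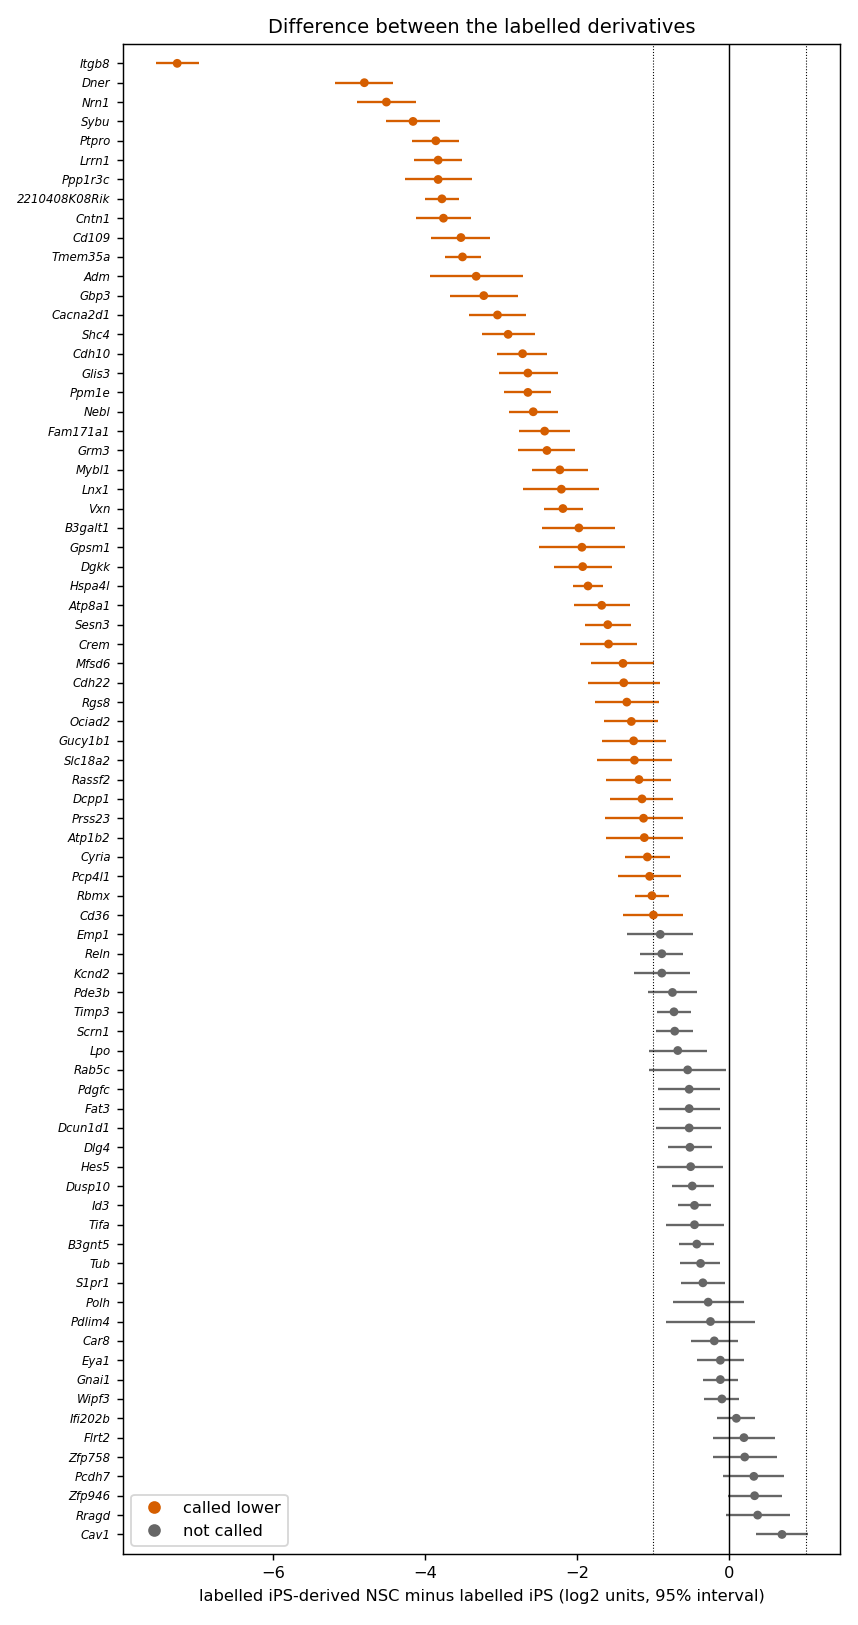
Each row is 1 of the 77 genes, with the difference of the labelled iPS-derived NSC from the labelled iPS arrays in log2 units as a point and its 95% interval as a bar; dotted lines mark 2-fold. The 45 orange genes were called lower, from Cd36 at -1.0 to Itgb8 at -7.26. The 32 grey genes were not called and reach up to Cav1 at 0.69.

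Members varied in the size of this step. Of the 77 genes, 24 were at least 2 and 14 at least 3 log2 units lower, while 18 lay within 0.5 of no difference. The median was -1.15, against 0.12 over all genes and -0.22 over genes with a brain NSC mean of at least 7. For 66 genes all labelled iPS-derived NSC arrays lay below all labelled iPS arrays, a pattern of 29.4% of all genes. The reverse held for Cav1, Flrt2 and Zfp946, against 40.1% of all genes, and 8 genes overlapped. Of the 32 genes not called, 19 had an adjusted p under 0.05 but less than 2-fold, and 13 had a higher p. The genes with the largest differences on the arrays labelled iPS, Pcdh7, Hes5, Ifi202b, Eya1 and Car8, were all among those not called, with intervals of their step between -0.95 and 0.72. Their labelled iPS means were 3.32, 5.86, 4.75, 4.87 and 4.73. Except for Hes5 these lay under or close to the lower quartile (4.22 to 4.41 over the 10 arrays). The part of this in the missing calls was not tested.

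Within brain NSC the SD of these genes over the 4 arrays had a median of 0.23, against 0.17 over genes with a brain NSC mean of at least 7. Replicate 4 was the lowest of the 4 in 47 genes and the highest in 17. Its difference from the mean of replicates 1 to 3 had a median of -0.29 over the 77, against 0.03. Leaving it out, with the 77 genes held fixed, kept the same 45 calls between the derived groups. Brain NSC arrays enter that comparison only through the spread that limma pools over the groups, so this does not bear on the choice of the 77.

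A second reading of the same gene was possible for part of the set. Of 91 other probe sets, which covered 46 of the genes, 34 on 24 genes had a brain NSC mean of at least 7. In 18 of the 34 both derived groups were at least 1 lower, and in 13 of the 24 genes all such probe sets were. On 3 of the 34 the labelled iPS arrays were not below brain NSC, 1 of Atp8a1 and 2 of Gpsm1. On 1 such probe set each of Crem, Lnx1, Scrn1, Gnai1 and Hspa4l they were below by less than 1, at -0.53, -0.41, -0.58, -0.72 and -0.93. On 2 of Dcun1d1 they stood at -0.34 and -0.23. On all 34 the labelled iPS-derived NSC arrays were below brain NSC.

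The limits of the rule cut through a continuous range. Just inside lay Dusp10, Dcun1d1 and Adm, whose smaller differences were -1.004, -1.002 and -1.001. Just outside were Rnf227 at -0.999, Egfr, the receptor through which cultured neural stem cells receive their growth factor, at -0.996, and Ildr2 at -0.994. Egfr averaged 11.69 in brain NSC, 10.70 on the arrays labelled iPS and 4.43 on those labelled iPS-derived NSC. At the level limit Kcnd2 (7.014) and Tifa (7.127) were inside and Lrp4 (6.992) and Ccbe1 (6.973) outside.

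The 76 genes with a position in RefSeq's table of GRCm38.p6 lay on most chromosomes. Chromosomes 1 and 5 held 9 each, 11.8% of the set, against 5.8% and 6.6% of genes with a brain NSC mean of at least 7. Chromosomes 8 and 14, with 5.62% and 3.21% of those genes, held 0 of the 76. These shares are a description with no test.

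**Figure D5:**
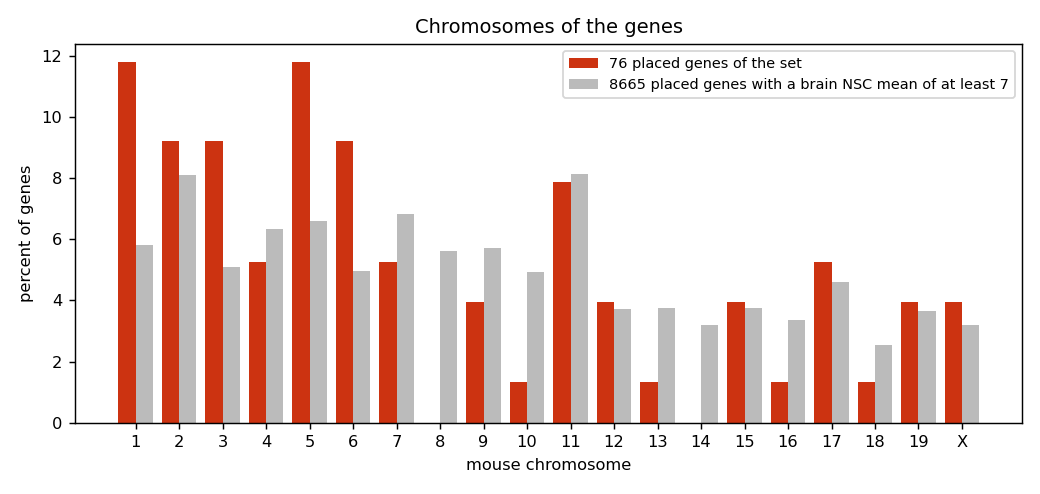
Bars give the percent of genes on each mouse chromosome, for the 76 placed genes of the set (red) and for 8665 placed genes with a brain NSC mean of at least 7 (grey). Red bars are highest on chromosomes 1 and 5, at 11.8%, and absent on 8 and 14.

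CG pairs, the sites of DNA methylation, were counted in the promoters. The first listed RefSeq promoter of the 65 genes had a median of 13 CG pairs in 300 bases, against 23 for 7170 genes with a brain NSC mean of at least 7. Under 5 pairs were found in 10.8% of the set and 3.77% of those genes. The set ran from 2 pairs, in Cdh10, Fam171a1, Gbp3 and Lpo, to 53 in Gnai1, and the promoter of Hes5 shown above had 41. The promoter of Cdh10 is printed as one of the lowest, from the plus strand of GRCm38.p6 at chr15:18820079-18820378, with each CG in capitals.
Cdh10: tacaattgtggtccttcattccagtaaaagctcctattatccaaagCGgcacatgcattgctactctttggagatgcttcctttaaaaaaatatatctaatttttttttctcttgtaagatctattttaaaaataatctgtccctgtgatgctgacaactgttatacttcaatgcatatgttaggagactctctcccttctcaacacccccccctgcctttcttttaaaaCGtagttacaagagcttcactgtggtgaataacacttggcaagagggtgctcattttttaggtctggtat
Hes5 and Cdh10 were lower than in brain NSC in both derived groups, as the rule requires. Methylation itself was not measured.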

How the data were processed

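RNA of 10 samples was hybridised to Affymetrix mouse arrays, 1 array a sample, with biotin labelling of 1 microgram of total RNA per the labels' protocols. The table the authors deposited holds 1 log2 value for each probe set and array, computed with RMA, per the submitters' processing notes, under Bioconductor, per the labels, with no version named there. RMA makes the arrays' distributions alike, which takes out most of any shift common to all genes. Scanner files and scan dates were not used here. The number of arrays limits the precision.

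Of 45101 probe sets 34945 had 1 gene symbol in the platform annotation, 932 had several and 9160 none, and 64 were controls. The brightest probe set over the 10 arrays stood for each of 18193 genes, of which 18032 were found in RefSeq's table of GRCm38.p6. Groups came from the sample titles. The difference between the 3 groups was fitted with limma 3.58.1 in R 4.3.3 (lmFit and eBayes over all 10 arrays, 7 residual and 5.95 prior degrees of freedom, two-sided, Benjamini-Hochberg over all genes), and the procedure was tested on simulated data. Errors of differences are limma's SE. Tables were made with pandas 2.3.3 and numpy 2.4.6 in Python 3.11.15 and figures with matplotlib 3.10.9.

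The 77 genes and the 35 gene lists were chosen with earlier results of these data known, and the role groups after the values were seen. Full values are given for the 12 genes with the largest smaller difference, the 6 largest falls between the derived groups (no rise was called), list members, and the members just inside the limit; other genes were named to account for the set. The samples' replicate numbers were checked and do not pair them. Alternatives varied the probe set, the normalization, the limits, the fit and the arrays.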

Additional observations from a re-analysis of the deposited data

Results flagged for a closer look

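Brain NSC was the only group large enough to test for a single outlying array, with Dixon's criterion on the 4 levels of each of the 77 genes, and chance flags about 1 in 20 such groups. In 7 genes 1 array stood apart. Replicate 4 was low for 5 of them. Cd36 read 6.80 there and 7.54 to 7.68 on the other brain NSC arrays, and the potassium channel gene Kcnd2 6.63 against 7.09 to 7.17. Itgb8 read 11.25 against 11.57 to 11.62, 2210408K08Rik 10.81 against 10.99 to 11.0, and Adm 10.22 against 10.78 to 10.80. Replicate 2 was high for the other 2, Id3 at 10.88 against 10.71 to 10.73 and the chaperone gene Hspa4l at 9.93 against 9.75 to 9.77. Adm and Kcnd2 left the set without brain NSC replicate 1, 2 or 3, and Adm, Itgb8 and 2210408K08Rik without labelled iPS replicate 2, while Cd36, Id3 and Hspa4l stayed with each array left out in turn.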

How the results depend on the processing

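The number of genes in the set depended on the limits and the probe set. It was 77 as reported, 51 when all probe sets of a gene were averaged, 50 with a brain NSC mean of at least 8, 150 with a limit of 0.8 and 27 with a limit of 1.5, and 76 to 100 with single arrays left out. Of the 77, 32 were kept under each of the 16 settings that left the limits alone, and 66 with each array left out in turn. Calls between the derived groups numbered 45 as reported, 36 with averaged probe sets and 39 without the probe sets that can read related transcripts. With single arrays left out they numbered 41 to 47. Each time there were 0 calls in the other direction. The median step between the derived groups was -1.154 as reported, -0.869 with averaged probe sets and -1.186 to -1.084 with single arrays left out. Over all genes, the calls of labelled iPS against brain NSC numbered 335 as reported, 223 with averaged probe sets, 183 when tested against a minimum of 1.5-fold, and 296 to 537 with single arrays left out. The count was 537 without brain NSC replicate 4. Leaving out single arrays gave 4575 to 4702 calls of labelled iPS-derived NSC against brain NSC and 4586 to 4644 between the derived groups.

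The fit with a replicate block called 537, 4658 and 4599 genes in the 3 comparisons and the same 45 of the set; the block gives brain NSC replicate 4 a term of its own. Same-numbered samples deviated together by correlations of -0.21 to 0.133, and differently numbered ones by -0.37 to 0.316, so the numbers are only names. A tally of single genes under the alternatives covers only those picked by the rules above for full values. Of their values, 502 kept their side of the threshold, 14 lost the call (of Rbmx, Cd36, Prss23, Cdh10 and Atp1b2) and 5 gained it (Reln and Kcnd2). No called step in this tally changed its sign. Of the uncalled ones, that of Ifi202b, 0.09 as reported, was -0.05 under quantile normalization and -0.02 without labelled iPS replicate 2, and that of Car8, -0.20 as reported, was 0.08 without probe sets that can read related transcripts. Outside that tally, Crem, Cyria, Mfsd6, Nebl and Rassf2 lost the call with averaged probe sets, and Cyria and Pcp4l1 without labelled iPS replicate 1. Rassf2 also lost it without labelled iPS replicate 2, and Pcp4l1 without labelled iPS-derived NSC replicate 1. Emp1 gained a call without labelled iPS-derived NSC replicate 1 or 2. Gbp3, Gpsm1, Lnx1 and Ptpro had only probe sets that can read related transcripts, and no call without those. Signal over background was not measured, and the causes of these changes were not tested.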
